A study of Rattus norvegicus with 8 samples.

Results

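Transcripts of 7 subunits of the GABA-A receptor, the channel that picrotoxin (PTX) blocks, were followed in hippocampal neurons: the alpha subunits Gabra2, Gabra3, Gabra4 and Gabra5, the beta subunits Gabrb1 and Gabrb2, and the delta subunit Gabrd. They were chosen by name from the 28909 gene symbols of the count table, and all 7 were among the 14309 genes with enough reads to be tested. Primary hippocampal neurons of Sprague-Dawley rats were grown on porous filter inserts, and total RNA depleted of ribosomal RNA was sequenced separately from the somata compartment on the upper side and from the processes that had grown to the lower side. PTX was applied for 48 h, from day 18 to day 20 in vitro, and control cultures received vehicle. The 4 groups (somata control, somata PTX, processes control, processes PTX) had 2 libraries each. The labels do not say whether these came from separate cultures, so p-values measure the spread between the libraries.

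GABA-A receptors are pentameric chloride channels that open when GABA binds between an alpha and a beta subunit, and they carry most fast inhibition in the hippocampus. The alpha subunit sets much of the pharmacology and position of a receptor: receptors with alpha2 and alpha3 are mostly found at synapses, those with alpha5 and those pairing alpha4 with delta mostly outside them, where they pass a tonic current. Beta subunits help to form the GABA site and are needed for assembly and transport to the surface, and the delta subunit takes the place that a gamma subunit has in synaptic receptors. PTX enters the pore and closes the channel whichever of these alpha and beta subunits form it.

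Library totals ranged from 12290890 to 18455662 reads. The 2 most abundant mitochondrial genes took 21.1% to 24.8% of them in the somata libraries and 64.9% to 68.3% in the processes libraries. The 7 subunit genes together received 6174 to 7914 reads per library in somata and 1832 to 2367 in processes. All levels below are counts per 1000000 after TMM scaling (CPM). Transcript lengths were not available, so levels were not compared between genes. Marker lists showed mixed cultures on both sides of the filter. The summed level of 6 neuronal markers was 1652 to 2055 CPM on the somata side and 3900.4 to 5445 CPM on the lower side. That of 8 astrocyte markers was 3033 to 4336 CPM and 11156 to 14613 CPM, with no marker of either list at 0. The neuronal markers did not share a direction. In control cultures Map2 and Rbfox3 were higher in processes, while Snap25, Syt1 and Tubb3 were lower (adjusted p under 0.05, quasi-likelihood test). The median log2 fold change of that list was -0.33. Microglial markers reached at most 1.72 CPM and endothelial markers at most 0.934 CPM. In bulk RNA, fewer cells of a type and less RNA per cell cannot be told apart.

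The sequence upstream of the start site is shown for Gabra5 and for both beta genes, the members on which the PTX results turn. RefSeq promoters of the GRCr8 assembly (250 bases before to 50 after the start) were matched by symbol for 6 of the 7 genes, all but Gabra2. The 250 bases before the start are given 5′ to 3′ on the strand of the gene, for Gabra5 from chr1:117516607-117516856 (minus strand), for Gabrb1 from chr14:36902894-36903143 (minus strand) and for Gabrb2 from chr10:27439543-27439792 (plus strand). Capitals mark a GC box (CCGCCC, searched on both strands) in Gabra5 and, in the beta genes, runs of at least 10 bases that both promoters hold on the same strand.
Gabra5: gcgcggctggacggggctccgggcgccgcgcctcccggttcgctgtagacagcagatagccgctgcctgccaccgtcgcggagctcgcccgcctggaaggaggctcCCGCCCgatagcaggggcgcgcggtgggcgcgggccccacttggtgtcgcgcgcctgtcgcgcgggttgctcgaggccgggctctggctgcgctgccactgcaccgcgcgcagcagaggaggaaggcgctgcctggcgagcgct
Gabrb1: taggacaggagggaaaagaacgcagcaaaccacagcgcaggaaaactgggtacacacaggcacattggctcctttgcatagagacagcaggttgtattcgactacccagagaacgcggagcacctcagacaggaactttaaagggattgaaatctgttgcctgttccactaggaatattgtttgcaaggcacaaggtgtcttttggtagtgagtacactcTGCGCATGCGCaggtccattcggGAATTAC
Gabrb2: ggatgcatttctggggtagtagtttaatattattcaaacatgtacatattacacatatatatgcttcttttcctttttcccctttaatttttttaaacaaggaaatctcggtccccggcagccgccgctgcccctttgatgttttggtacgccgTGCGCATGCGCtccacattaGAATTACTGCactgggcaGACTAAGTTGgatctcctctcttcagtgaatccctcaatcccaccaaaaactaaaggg
Gabra5 had the most GC-rich of the 6 promoters, with 76.3% G or C and 42 CpG dinucleotides in its 300 bases, against medians of 51.7% and 7 over the 33469 promoters of the table. Gabra4 (70.7%) and Gabrd (73.7%) were GC-rich as well and also held the GC box, which 33.1% of all promoters hold on either strand. Gabrb1 (49.3%), Gabrb2 (44%) and Gabra3 (39.3%) lay below the median and held none. The beta promoters shared the run TGCGCATGCGC, present on either strand in 0.598% of all promoters. They also shared the runs GAATTACTGC (0.0388%, either strand) and GACTAAGTTG (0.0149%, either strand). Among the other pairs of the 6 promoters, Gabra4 and Gabrd also shared a run of 11 bases, and Gabra4 with Gabrb1 and Gabra5 with Gabrd runs of 10. In Gabrb1 GAATTACTGC crosses the start, so its last bases fall outside the printed stretch, and GACTAAGTTG lies beyond it. The cyclic AMP response element TGACGTCA was found in none of the 6 windows, on either strand, and in 1.83% of all promoters. TATAAA was found in Gabra3 alone of the 6 and in 14.2% of all promoters. These matches describe letters in a window, not sites in use. In the same assembly Gabrb1 and Gabra4 are neighbours on chromosome 14, with 1 gene between Gabra4 and Gabra2, while Gabra5, Gabra3, Gabrb2 and Gabrd lie on chromosomes 1, X, 10 and 5.

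The first comparison asked which subunit transcripts differed after 48 h of PTX in each compartment. Gabra5 fell in somata and Gabrb1 fell in processes, and these were the only members past an adjusted p of 0.05 in edgeR's quasi-likelihood test over all 14309 genes. The call was thus made for 1 of 7 members in each compartment, against 3.59% of all tested genes in somata (1.5% called lower) and 3.74% in processes (2.1% called lower). The median log2 fold change of the 7 genes was 0.02 in somata and 0.05 in processes, beside -0.01 over all tested genes in both, and the 7 genes did not share a direction.

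**Figure D1:**
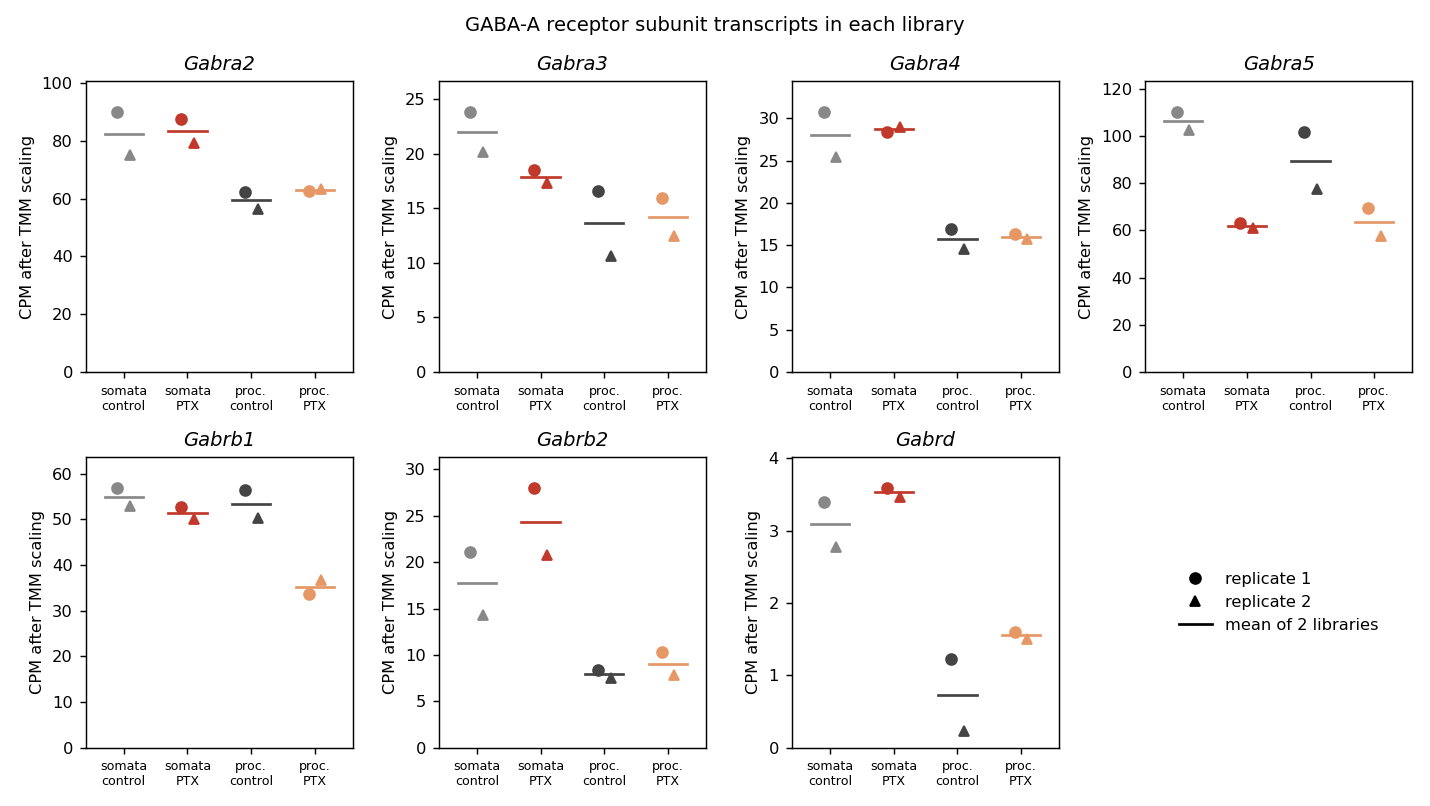
CPM after TMM scaling (vertical axis, from 0, separate for each gene) of the 7 subunit genes in the 4 groups, with circles for replicate 1, triangles for replicate 2 and lines for the mean of the 2 libraries. The PTX libraries of Gabra5 sit below the control libraries in both compartments (61.1 to 63.1 against 102 to 110 CPM in somata), while those of Gabrb1 sit far below only in processes.

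Gabra5 encodes the alpha5 subunit, which is abundant in hippocampal pyramidal cells. In somata it was measured at 110 and 102 CPM in the 2 control libraries and at 63.1 and 61.1 CPM in the 2 PTX libraries. Every PTX library lay below every control library, and the mean went from 106 ± 5.47 CPM to 62.1 ± 1.38 CPM (SD, n = 2). The log2 fold change was -0.77 (standard error 0.139, 95% interval -1.08 to -0.47, adjusted p = 0.0126, quasi-likelihood test), on 1445 to 2617 reads per library. In processes the levels were 102 and 77.5 CPM in control libraries and 69.6 and 57.7 CPM in PTX libraries. These groups did not overlap either, but the control libraries lay far apart. The log2 fold change there was -0.49 (standard error 0.145, 95% interval -0.81 to -0.17, adjusted p = 0.0984), and it passed once the replicate number entered the fit as a block (adjusted p = 0.00196). It was -0.29 without processes control replicate 1 (adjusted p = 0.447) and -0.68 without replicate 2 (adjusted p = 0.038). Left out in turn, each of the 4 somata libraries left the adjusted p in somata between 0.0603 and 0.0779, with log2 fold changes of -0.84 to -0.73.

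Gabra2, whose subunit is found at synapses on the axon initial segment, gave levels close to each other with and without PTX. It was measured at 89.9 and 75.0 CPM in somata control, 87.6 and 79.2 CPM in somata PTX, 62.2 and 56.5 CPM in processes control and 62.7 and 63.3 CPM in processes PTX. The PTX libraries of somata lay within the range of the controls, those of processes lay just above, and the 95% intervals of the log2 fold change were -0.24 to 0.28 in somata and -0.19 to 0.36 in processes. Gabra4, the partner of delta in extrasynaptic receptors, was measured at 30.7 and 25.4 CPM in somata control, 28.4 and 29.0 CPM in somata PTX, 16.9 and 14.5 CPM in processes control and 16.3 and 15.8 CPM in processes PTX. Here the PTX libraries lay within the control range in both compartments, with intervals of -0.24 to 0.31 and -0.31 to 0.36. Both intervals leave out a change of the size measured for Gabra5 in somata.

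Gabra3 encodes the alpha3 subunit, another benzodiazepine-sensitive alpha subunit. It was measured at 23.8 and 20.1 CPM in somata control and at 18.5 and 17.3 CPM in somata PTX. The groups did not overlap, but at a log2 fold change of -0.29 (standard error 0.18, 95% interval -0.69 to 0.10) the adjusted p was 0.512. In processes its levels of 16.6 and 10.7 CPM in control and 15.9 and 12.5 CPM in PTX libraries overlapped, and the log2 fold change was 0.05 (95% interval -0.42 to 0.52). Its control libraries in processes held 149 and 91 reads.

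**Figure D2:**
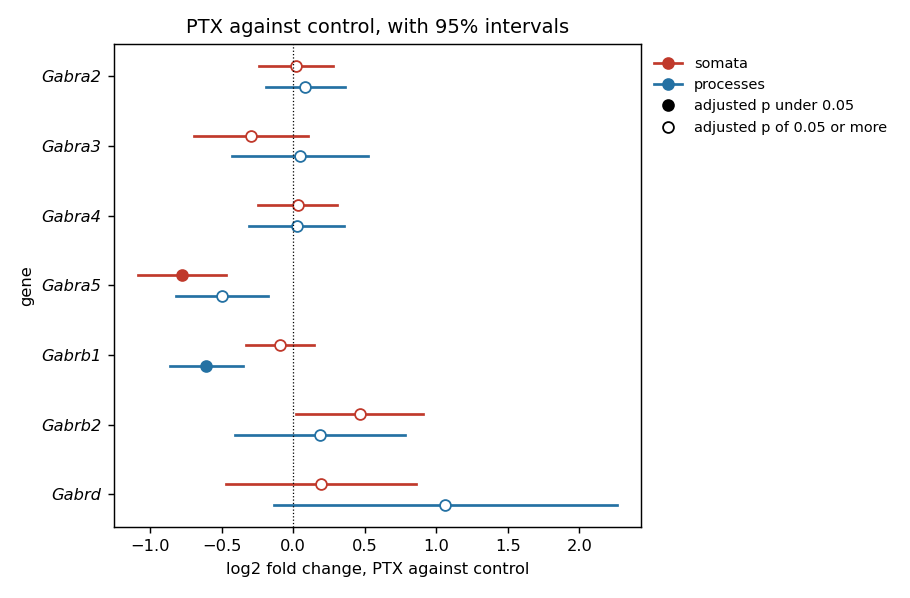
Log2 fold change of PTX against control (horizontal axis) for each subunit gene, with 95% intervals, red for somata and blue for processes, and filled points for an adjusted p under 0.05. The filled points are Gabra5 in somata at -0.77 and Gabrb1 in processes at -0.61, and the interval of Gabrd in processes (-0.14 to 2.26) is the widest.

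Gabrb1, the gene of the beta1 subunit, was measured at 56.6 and 50.4 CPM in processes control and at 33.6 and 36.6 CPM in processes PTX. The PTX libraries were both below the controls, and the mean went from 53.5 ± 4.34 CPM to 35.1 ± 2.16 CPM (SD, n = 2). The log2 fold change was -0.61 (standard error 0.116, 95% interval -0.86 to -0.35, adjusted p = 0.0194, quasi-likelihood test), on 293 to 508 reads per library. In somata its levels were 56.9 and 53.0 CPM in control and 52.7 and 50.2 CPM in PTX libraries. The PTX libraries were again the lower ones, by less than the spread between libraries allows to be called: the log2 fold change was -0.09 (standard error 0.107, 95% interval -0.33 to 0.14, adjusted p = 0.779). The call in processes was lost without processes control replicate 1 (-0.52, adjusted p = 0.129), processes PTX replicate 1 (-0.55, adjusted p = 0.118) or processes PTX replicate 2 (-0.67, adjusted p = 0.0699), and with scaling by library size only (-0.55, adjusted p = 0.0565).

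Gabrb2, the gene of the beta2 subunit, pointed the other way in somata. Its levels were 21.1 and 14.4 CPM in control and 28.0 and 20.8 CPM in PTX libraries. The groups overlapped, yet the PTX library was the higher one in both replicate numbers, by 0.41 and 0.53 on the log2 scale. The log2 fold change was 0.47 (standard error 0.201, 95% interval 0.02 to 0.91, adjusted p = 0.289), and blocking on the replicate number brought its adjusted p to 0.00408. Without somata control replicate 1 the log2 fold change was 0.76, and without replicate 2 it was 0.20; without somata PTX replicate 1 it was 0.22. In processes Gabrb2 had between 64 and 90 reads per library, with levels of 8.35 and 7.51 CPM in control and 10.3 and 7.83 CPM in PTX libraries. These overlapped, and the log2 fold change of 0.19 (95% interval -0.40 to 0.78) leaves both directions possible.

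Gabrd, which encodes the delta subunit, had the fewest reads of the 7 genes. In somata it had 80 and 71 reads in control and 100 and 82 reads in PTX libraries, or 3.40 and 2.78 CPM against 3.59 and 3.47 CPM. Both PTX libraries were slightly above the controls, by a log2 fold change of 0.20 (standard error 0.3, 95% interval -0.47 to 0.86). In processes the reads were 11 and 2 in control and 14 and 15 in PTX libraries. The fold change, 1.06 on the log2 scale (standard error 0.542, 95% interval -0.14 to 2.26, adjusted p = 0.367), rested on the library with 2 reads. It was 0.34 without processes control replicate 2 and 2.69 without replicate 1, so a change of Gabrd in processes was not measurable at this depth.

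In the fit blocked on the replicate number, 2 of the 7 members passed in somata (Gabra5 lower and Gabrb2 higher) and 2 in processes (Gabra5 and Gabrb1 lower). Of all tested genes 14% were called in somata and 11.2% in processes in that fit. The summed levels of marker lists differed as well. The summed level of 10 inhibitory neuron markers was 248 to 352 CPM in somata control and 424 to 558 CPM in somata PTX, against 139 to 181 and 222 to 291 CPM in processes. This sum includes Gad1 (means of 77.5 and 137 CPM in somata control and PTX) and Gad2 (134 and 253 CPM). Of the 8 tested markers only these 2 were called in somata and only Gad2 in processes, with list medians of 0.57 and 0.51. Slc32a1 of the same list was at 28.7 CPM in somata control and 28.1 CPM in somata PTX. The 7 excitatory markers summed to 330.4 to 339.7 CPM in somata control and 242 to 268 CPM in somata PTX, and to 175 to 225 and 273 to 295 CPM in processes. In processes Slc17a7 was called higher, while Neurod2 and Neurod6 of the same list were called lower and the median log2 fold change of the list was -0.54. In processes the neuronal markers were at 5119.8 to 5445 CPM in control and 3900.4 to 4598 CPM in PTX libraries, and the astrocyte markers at 13090.4 to 14613 and 11156 to 12437 CPM. There 0 of the 6 neuronal and 0 of the 8 astrocyte markers were called, with median log2 fold changes of -0.38 and -0.11. In somata the neuronal markers were at 1806 to 2055 CPM in control and 1652 to 1806 CPM in PTX libraries, and the astrocyte markers at 3921 to 4336 and 3033 to 4052 CPM. Rbfox3, Neurod6 and Gja1 of these lists were called lower in somata. No marker of these 4 lists was at 0 in every library. The part of these shifts in the values of Gabra5, Gabrb1 and Gabrb2 was not tested.

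Whether the PTX effect differed between the compartments was tested with the interaction, the effect in processes minus that in somata. No member passed, and neither did any other gene: 0% of the 14309 were called, while 572 had an unadjusted p under 0.05, of which Gabrb1 was the only member. For Gabrb1 the difference was -0.51 (standard error 0.158, 95% interval -0.86 to -0.16), with an unadjusted p of 0.00808 and an adjusted p of 1 in edgeR's quasi-likelihood test. With the replicate block its adjusted p was 0.178, when 15 genes or 0.105% passed, and the likelihood ratio test and DESeq2 each called 4 genes and no member. For Gabra5 the difference was 0.28 (standard error 0.2, 95% interval -0.16 to 0.72). The fall of Gabrb1 is therefore not shown to be particular to processes, nor that of Gabra5 to somata.

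Ratios between subunits within a library do not depend on its scaling, and only their change between conditions is read, since transcript lengths differ. No test was run on the ratios, and groups of 2 libraries can lie apart without any difference. Per read of Gabra2, Gabra5 had 1.22 and 1.36 reads in somata control and 0.719 and 0.771 in somata PTX. In processes this ratio was 1.63 and 1.37 in control and 1.11 and 0.913 in PTX libraries. The groups were apart in both compartments, with a difference of -0.80 in somata and -0.57 in processes on the log2 scale. The ratio of Gabra5 to Gabra4 was likewise lower in every PTX library, by differences of -0.81 and -0.52, while that of Gabra4 to Gabra2 overlapped in both compartments (0.02 and -0.06). Gabra3 to Gabra2 was lower with PTX in somata (-0.31) and overlapped in processes (-0.01).

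The ratio of Gabrb1 to Gabrb2 separated the groups on both sides of the filter. It was 2.70 and 3.69 in somata control, 1.88 and 2.42 in somata PTX, 6.74 and 6.67 in processes control and 3.24 and 4.66 in processes PTX. Every PTX library lay below both controls of its compartment, with log2 differences of -0.57 in somata (pooled SD 0.287) and -0.79 in processes (pooled SD 0.261). Of the separate log2 fold changes, the larger was that of Gabrb2 in somata (0.47) and that of Gabrb1 in processes (-0.61). In somata neither gene was called in the quasi-likelihood test (adjusted p = 0.779 for Gabrb1 and 0.289 for Gabrb2). The ratio of Gabrd to Gabra5 was higher with PTX by 0.97 in somata, and that of Gabrd to its partner Gabra4 by 0.16, with no overlap in either. Gabra5 had the larger of the separate log2 fold changes (-0.77), beside 0.20 for Gabrd (adjusted p = 0.852, quasi-likelihood test). Gabrd had only 71 to 100 reads per library in somata, so these ratios do not show a change of Gabrd. In processes the differences of 1.88 and 1.36 both include the control library with 2 reads of Gabrd.

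**Figure D3:**
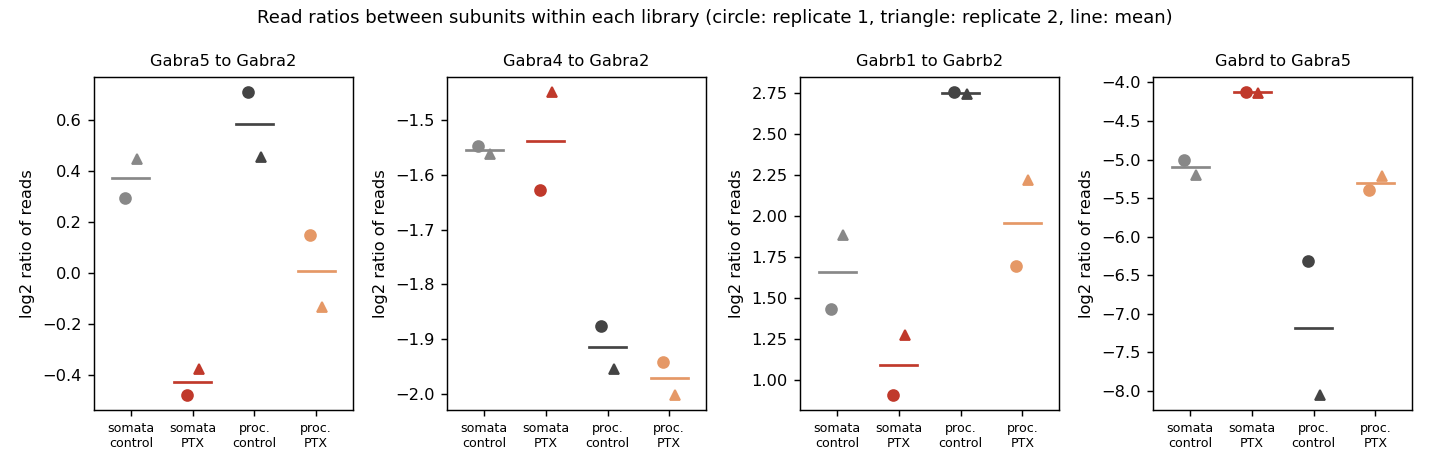
Log2 of the ratio of reads between 2 subunit genes in each library (vertical axis, own range in each panel), with circles for replicate 1, triangles for replicate 2 and lines for the group mean. Gabra5 to Gabra2 and Gabrb1 to Gabrb2 are lower in every PTX library than in the controls of the same compartment, whereas Gabra4 to Gabra2 overlaps between the groups.

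Subunit transcripts were mostly lower in processes than in somata, relative to the typical gene. In control cultures 5 of the 7 were lower and 0 higher, when 47.7% of all tested genes were called (21.9% lower). In PTX cultures again 5 were lower and 0 higher, when 49.8% were called (24% lower). The median log2 fold change of the 7 genes was -0.68 in control and -0.55 in PTX cultures, beside -0.05 over all tested genes in both. Lower levels in processes were not particular to these genes. In control cultures 4 of 4 AMPA receptor genes and 2 of 2 tested glycine receptor genes were lower. Of 5 tested genes for the GABA-B receptor and its potassium channels, 4 were lower and 1 higher. Of 8 tested inhibitory neuron markers 5 were lower in processes in control and 6 in PTX cultures, and 0 higher. Of 7 excitatory markers 3 were lower and 0 higher in each. Astrocyte markers summed to 3921 to 4336 CPM in somata control and 13090.4 to 14613 CPM in processes control. Of these 8 markers 4 were higher and 2 (Gja1 and Slc1a3) lower in processes of control cultures, with a median log2 fold change of 0.52. In PTX cultures 5 were higher and 0 lower, with a median of 0.54. Of 6 neuronal markers 2 were higher and 3 lower in each, with medians of -0.33 and -0.38. The part of these differences in the values of the subunit genes was not tested. All of these values are relative to TMM scaling: with library size only, the median tested gene moved to -1.86 in control and -1.87 in PTX cultures and every member was below 0.

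Gabrb2 and Gabrd differed most in control cultures. The log2 fold change of processes against somata was -1.16 for Gabrb2 (standard error 0.238, adjusted p = 0.00252) and -2.05 for Gabrd (standard error 0.452, adjusted p = 0.00373, on 11 and 2 reads in processes). The value of Gabrd was -3.68 without processes control replicate 1 and -1.33 without replicate 2. Gabra4 (-0.83, standard error 0.139, adjusted p = 0.000648), Gabra3 (-0.68, standard error 0.198, adjusted p = 0.0155) and Gabra2 (-0.47, standard error 0.121, adjusted p = 0.00847) were lower as well. For Gabrb1 the difference of -0.04 (95% interval -0.28 to 0.21) was smaller than the spread, at 54.9 ± 2.80 CPM (somata) against 53.5 ± 4.34 CPM (processes). Gabra5 was at -0.25 (standard error 0.141, adjusted p = 0.174), with an adjusted p of 0.0281 under the replicate block. With upper quartile scaling it was at -0.45 (adjusted p = 0.0194), while the median tested gene moved to -0.25. With TMM scaling Gabra5 was at -0.45 without processes control replicate 1 and -0.06 without replicate 2. Without somata control replicate 1 or processes control replicate 2, the adjusted p was 0.0910 or 0.0572 for Gabra2 and 0.0909 or 0.130 for Gabra3.

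In PTX cultures the lower members were led by Gabrb2 at -1.43 (standard error 0.23, adjusted p = 0.000472), followed by Gabrd at -1.18 (standard error 0.379, adjusted p = 0.0238) and Gabra4 at -0.84 (standard error 0.137, adjusted p = 0.000529). Gabrb1 was now among them, at -0.55 (standard error 0.113, adjusted p = 0.00223), at 51.5 ± 1.81 CPM (somata) against 35.1 ± 2.16 CPM (processes). Gabra2 was at -0.41 (adjusted p = 0.0167). Gabra3 was not called (-0.34, adjusted p = 0.174), though its adjusted p was 0.0338 with the block. Gabra5, at 0.04, stood at 62.1 ± 1.38 CPM (somata) and 63.7 ± 8.39 CPM (processes). This difference was -1.80 with library size only and -0.14 with upper quartile scaling, where the median tested gene moved to -1.87 and -0.23. The call of Gabrd was lost without any 1 of the 4 PTX libraries, though its log2 fold change stayed between -1.23 and -1.13. That of Gabra2 was lost without somata PTX replicate 1, processes PTX replicate 1 or processes PTX replicate 2. Its log2 fold change ranged from -0.47 to -0.32 with a library left out.

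**Figure D4:**
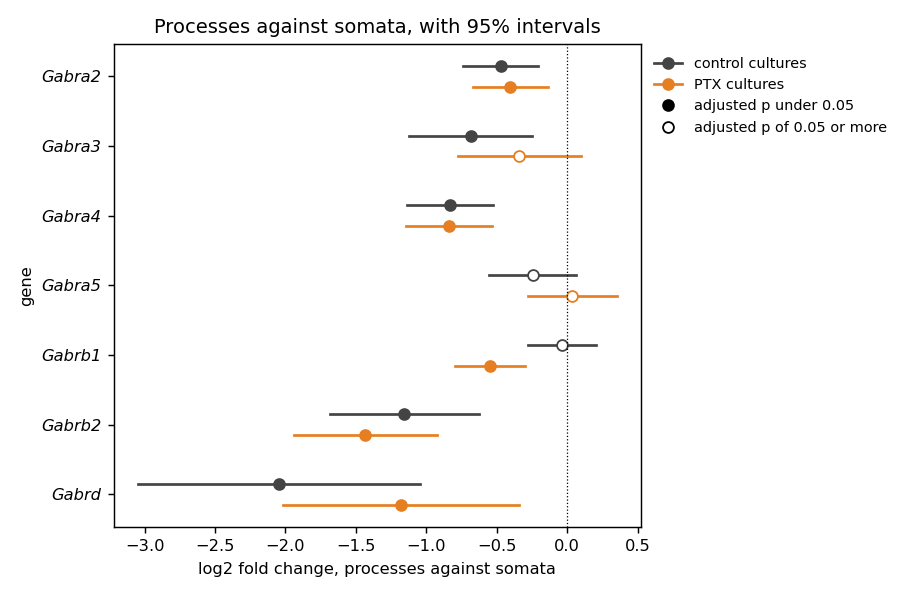
Log2 fold change of processes against somata (horizontal axis) for each subunit gene in control (grey) and PTX cultures (orange), with 95% intervals and filled points for an adjusted p under 0.05. Gabrb1 lies at -0.04 in control and -0.55 in PTX cultures, while Gabra4 lies at -0.83 and -0.84.

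Other genes of the inhibitory synapse were taken from lists of its parts. Of 12 further GABA-A subunit genes 6 had enough reads, and 0 of these passed edgeR's quasi-likelihood test for PTX in either compartment. The likelihood ratio test called 1 of them, lower in somata, and DESeq2 called 0. Their log2 fold changes spanned -0.69 to 0.67 in somata and -0.28 to 1.19 in processes, with medians of -0.08 in both, and 4 of the 6 had an unadjusted p under 0.05 in somata and 0 in processes, beside 2229 and 2369 of all 14309 tested genes. Between compartments 3 of the 6 were lower in processes in control cultures, when 47.7% of all tested genes were called (21.9% lower). In PTX cultures 3 were lower and 1 higher, when 49.8% were called (24% lower). With the block, 1 was called higher and 3 lower for PTX in somata, beside 1030 and 971 of all 14309 tested genes.

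Of all 14309 tested genes, 299 were called higher and 214 lower for PTX in somata in the quasi-likelihood test. Of 26 tested genes for anchoring, assembling and moving the receptor, 2 rose there and none fell. The 2 were Iqsec3 (0.82, adjusted p = 0.00805), an exchange factor bound to the scaffold of inhibitory synapses, and Plcl1 (0.70, adjusted p = 0.0179), which binds the receptor and takes part in its trafficking. In processes Iqsec3 rose as well (0.82, adjusted p = 0.00853). Shisa7 (-0.75, adjusted p = 0.0283), an auxiliary subunit of the receptor, and Hap1 (-0.67, adjusted p = 0.0394), which links receptors to kinesin for return to the surface, fell there. The kinesin of that transport, Kif5a, was at -0.53 in somata (adjusted p = 0.375) and -0.08 in processes (adjusted p = 0.927), and with the block its adjusted p in somata was 0.00276. With the replicate block 2 genes of the list were called higher and 7 lower in somata, and 2 higher and 4 lower in processes. Of all 14309 tested genes that fit called 1030 higher and 971 lower in somata, and 730 and 871 in processes. In that fit Plcl1 also passed as higher in processes (adjusted p = 0.00435), and Shisa7 and Hap1 as lower in somata (adjusted p = 0.00946 and 0.0185). In this list 13 genes were higher and 4 lower in processes than in somata of control cultures, beside 3688 and 3135 of all 14309 tested genes.

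Among 8 genes for making, moving and breaking down GABA, both GABA-synthesising enzymes rose in somata. Gad1 went from 77.5 ± 18.1 to 137 ± 20.7 CPM (log2 fold change 0.82, adjusted p = 0.0247) and Gad2 from 134 ± 30.0 to 253 ± 46.6 CPM (0.92, adjusted p = 0.0328; SD, n = 2 each). Gad2 also rose in processes (0.92, adjusted p = 0.0384), where Gad1 was at 0.56 (adjusted p = 0.14, or 0.000639 with the block). The GABA transporter Slc6a11, found mainly on astrocytes, fell in somata (-0.80, adjusted p = 0.0179). In processes it was at -0.63 (adjusted p = 0.0743) and passed with the block (adjusted p = 0.000803), the likelihood ratio test (0.0158) and DESeq2 (0.0377). Gad1 and Gad2 are also inhibitory neuron markers and hold a large part of the sum given above, so that sum is not a separate measure. Of the 8 tested markers of that list, no other was called for PTX in either compartment.

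Among 11 chloride transport genes, Slc12a5, the neuronal extruder that sets the driving force of the receptor, fell in processes (-0.88, adjusted p = 0.027). In somata it was at -0.66 (adjusted p = 0.0549), and there it passed with the block (adjusted p = 7.87e-05), the likelihood ratio test (0.00631) and DESeq2 (0.0183). The kinase Wnk1 and the chloride transporter Clcn3, of highest CPM in the list, were at -0.07 and -0.08 in somata and at 0.33 and 0.05 in processes, and the value of Wnk1 in processes (adjusted p = 0.181) passed with the block (adjusted p = 0.0231). Of 5 tested genes for the GABA-B receptor and the potassium channels it opens (Gabbr1, Gabbr2, Kcnj3, Kcnj6 and Kcnj9), Gabbr2 fell in somata (-0.46, adjusted p = 0.0392) and no other passed the quasi-likelihood test. Kcnj6, a channel subunit, was at -0.53 in somata and -0.72 in processes, with adjusted p of 0.00328 and 0.0183 under the block and 0.025 and 0.0353 in the likelihood ratio test. Gabbr1 was at -0.09 in somata and -0.04 in processes. Neither of the 2 tested glycine receptor genes passed the quasi-likelihood test in either compartment (Glrb -0.14 and 0.02, Glra2 -0.69 and -0.55), with 1 at an unadjusted p under 0.05 in somata and 0 in processes. Glra2 in somata passed with the block (adjusted p = 0.000802). Of 4 AMPA receptor genes, whose product carries fast excitation, Gria1 fell in somata (-0.53, adjusted p = 0.0301) and none passed in processes, with Gria2 at -0.37 and -0.21. With the block 3 of the 4 were called lower in somata and 1 in processes, beside 971 and 871 of all 14309 tested genes. None of these lists held a gene past the interaction test.

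Across the 8 libraries, the log2 CPM of Gabra2, Gabra4 and Gabrb2 ran close together, with Pearson's r of 0.97 for Gabra2 and Gabra4, 0.958 for Gabra2 and Gabrb2 and 0.949 for Gabra4 and Gabrb2. These points share the compartment difference and are a description. The r was 0.605 for Gabra5 and Gabrb1 and -0.02 for Gabra5 and Gabrb2. Among 9249 genes with at least 5 CPM on average, the gene with the pattern most like Gabra5 was Lrp8 (r = 0.993), followed by Crym (0.979). The nearest to Gabrb1 were Phyhip (0.984) and Rhof (0.971), and the nearest to Gabrb2 were Maea and Ttll7 (both 0.997). Sst (0.988) and Sulf1 (0.983) were nearest to Gabra2, Col5a2 (0.989) and Tle1 (0.975) to Gabra3, Sidt1 (0.995) and Ift122 (0.993) to Gabra4, and Nrg1 (0.987) and Utp11 (0.979) to Gabrd.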

How the data were processed

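The submitters' processing notes name the Rnor_6.0 build, STAR, featureCounts and edgeR, while the study's methods name Trimmomatic, Subread and an Ensembl annotation, with reads summed by gene symbol. The deposited counts are whole numbers without normalization, and genes that share a symbol or overlap cannot be separated. The tables of the authors' own comparisons (log2 fold changes, likelihood ratios, p-values, FDR) were not used.

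A gene was tested when over 20 reads fell on it in 2 or more libraries, and libraries were scaled by TMM. All 8 libraries were fitted with 1 coefficient per group, and glmQLFTest of edgeR 4.0.16 in R 4.3.3 gave p-values, adjusted by the Benjamini-Hochberg method over all tested genes (threshold 0.05). Code was tested on simulated data. Ratios used reads plus 0.5, and log2 CPM a prior count of 2. Likeness was Pearson's r of log2 CPM over genes averaging 5 CPM or more.

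The replicate numbers pair the libraries: deviations of same-numbered libraries correlated at 0.274 to 0.54 over the 6 pairs of groups. The numbers come from the labels, which do not say what they mark. Blocking lowered the coefficient of variation from 11.5% to 6.77%.

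The members, the 7 gene lists and the tests were chosen with earlier results of these data known. Named from each list were, apart from the genes not reported here, its called genes and the 2 of highest CPM, for the further receptor subunits counts only, and for each member the 2 genes most alike. Tried as alternatives were DESeq2 1.42.0, the likelihood ratio test, other scalings and filters, 4 libraries only, the block, and each library left out. Sequences and neighbours come from RefSeq (GRCr8), a later build than that of the counts. Some single genes are not reported here.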

Additional observations from a re-analysis of the deposited data

How the results depend on the processing

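The direction of Gabra5 in somata and processes, Gabrb1 in processes and Gabrb2 in somata held under every alternative run. The adjusted p over the 16 alternatives ranged from 7.07e-07 to 0.0779 for Gabra5 in somata (12 under 0.05), from 0.000361 to 0.129 for Gabrb1 in processes (11), from 0.00196 to 0.447 for Gabra5 in processes (4) and from 0.00408 to 0.901 for Gabrb2 in somata (2). Members called for PTX in somata numbered 2 without a filter and 2 with the replicate block, and 0 to 1 with a library left out. In processes they numbered 2 with the likelihood ratio test, without a filter and with the block, 0 with library size only or with the 4 libraries compared alone, and 0 to 2 with a library left out. Between compartments, leaving out a library gave 3 to 6 members in control and 3 to 5 in PTX cultures. Over all genes, PTX calls in somata numbered 972 with the likelihood ratio test, 1141 without a filter, 2001 with the block and 117 to 568 with a library left out, and in processes 949, 1129, 1601 and 97 to 478, with 298 from 4 libraries alone. Interaction calls numbered 4 with the likelihood ratio test, 4 with DESeq2, 10 without a filter and 15 with the block. Compartment calls numbered 13461 in control and 13496 in PTX cultures with library size only, and 5008 to 6936 and 5225 to 7243 with a library left out. The cause of these shifts was not tested.

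Signs turned only for values near 0. Gabra5 between compartments of PTX cultures went to -1.80 (library size only), -0.14 (upper quartile) and -0.0305 (at least 10 reads in every library). Library size only and upper quartile scaling moved the median tested gene of that comparison to -1.87 and -0.23. The interaction of Gabra4 went to 0.0021 (DESeq2) and 0.0191 (upper quartile), and Gabra2 in somata to -0.0036 (upper quartile). With a library left out, the ranges that crossed 0 were -0.063 to 0.21 (interaction) and -0.12 to 0.15 (PTX in somata) for Gabra2, -0.23 to 0.41 (PTX in processes) for Gabra3, -0.15 to 0.14 (interaction), -0.0797 to 0.14 (PTX in processes) and -0.11 to 0.17 (PTX in somata) for Gabra4, -0.10 to 0.17 (compartments, PTX cultures) for Gabra5, -0.12 to 0.0423 (compartments, control cultures) for Gabrb1 and -0.0188 to 0.38 (PTX in processes) for Gabrb2. The ratios kept their direction with pseudocounts of 0 and 2. Gabrd had no value under the filter of 10 reads, and 4 libraries alone give no interaction. Depth limits Gabrd and Gabrb2 in processes, and 2 libraries per group limit all values.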

Other observations

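As a share of the reads of the 7 subunit genes together, Gabra5 took 32.8% and 34.9% in somata control libraries and 22.4% and 23.4% in somata PTX libraries. In processes it took 38.6% and 35.7% in control and 33.1% and 29.6% in PTX libraries. Gabra2 took 26.8% and 25.6% in somata control and 31.1% and 30.4% in somata PTX. The reads were not corrected for transcript length, so the shares are compared between libraries and not between genes. Gabrb2 took 6.27% and 4.90% in somata control and 9.93% and 7.95% in somata PTX. These shares have a common total, of which Gabra5 took less with PTX, and the CPM of Gabrb2 overlapped between the groups (21.1 CPM in the higher control and 20.8 CPM in the lower PTX library).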
